A study of Mus musculus with 9 samples.

Results

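The insulin-like growth factor (IGF) axis is represented here by 8 genes of the 20422 that the arrays measured with an unambiguous gene symbol: the ligand gene Igf1, the receptor gene Igf1r and the binding-protein genes Igfbp2, Igfbp3, Igfbp4, Igfbp5, Igfbp6 and Igfbp7. They were taken by name, and all 8 were measured on all 9 arrays with no filter on dim genes. The study asked why mouse induced pluripotent stem cells (iPSCs) made from tail-tip fibroblasts (TFs) form mammary epithelium less readily than iPSCs made from mammary epithelial (ME) cells. RNA of 3 groups was hybridised, with 3 arrays in each: freshly isolated ME cells as control, ME-iPSCs after mammary differentiation (D-ME-iPSCs) and TF-iPSCs after the same treatment (D-TF-iPSCs). Both iPSC types had been reprogrammed with retroviral Oct4, Sox2, Klf4 and c-Myc and were then grown for 3 days on Matrigel and for 6 days in a second step, in mammary epithelial growth medium. The ME cells that were reprogrammed came from virgin females 2 and 6 months old and the TFs from mice 2 months old. The paper states that the cells it transplanted express a β-galactosidase gene, but it also used D-ME-iPSCs without that gene. No sample label gives the genotype of the cells on the arrays. Neither the age of the mice behind the control arrays nor the number of iPSC lines behind each group is stated. The series is described as having biological replication, but no label ties an array to an animal or culture, so p-values measure the spread between these arrays.

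IGF1 is a secreted growth factor that binds the tyrosine kinase IGF1R, which signals through insulin receptor substrates to the PI3K-AKT and MAPK cascades. The IGF-binding proteins hold IGFs outside the cell, carry them, and either keep them from the receptor or release them when proteases cut the binding protein. IGFBP6 prefers IGF2 over IGF1, and IGFBP7 binds IGFs only weakly. In the mammary gland, IGF1 acts with growth hormone and estrogen in ductal growth, and IGFBP5 is known for its secretion by the epithelium during involution, the regression of the gland after weaning.

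The promoters of the members called in a comparison below, Igfbp5, Igfbp6 and Igfbp7, are shown as the stretch from 250 bases before to 50 bases after the transcription start, read from RefSeq in build GRCm38.p6 on the gene's own strand, 5′ to 3′. Capitals mark a match to GCCNNNGGC, a form of the AP-2 recognition motif that reads the same on both strands.
Igfbp5, chr1:72874816-72875115, minus strand: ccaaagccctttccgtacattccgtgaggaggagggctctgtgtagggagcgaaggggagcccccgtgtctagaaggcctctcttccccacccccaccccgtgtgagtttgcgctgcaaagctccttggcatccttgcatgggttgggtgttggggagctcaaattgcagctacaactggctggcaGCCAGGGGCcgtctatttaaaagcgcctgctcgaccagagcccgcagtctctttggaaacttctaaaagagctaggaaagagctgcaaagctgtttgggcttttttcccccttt
Igfbp6, chr15:102143936-102144235, plus strand: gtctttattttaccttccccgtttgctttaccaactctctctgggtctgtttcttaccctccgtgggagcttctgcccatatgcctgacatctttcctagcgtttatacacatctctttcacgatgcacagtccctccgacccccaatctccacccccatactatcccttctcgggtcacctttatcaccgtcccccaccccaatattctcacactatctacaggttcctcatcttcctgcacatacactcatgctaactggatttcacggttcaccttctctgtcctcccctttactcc
Igfbp7, chr5:77407996-77408295, minus strand: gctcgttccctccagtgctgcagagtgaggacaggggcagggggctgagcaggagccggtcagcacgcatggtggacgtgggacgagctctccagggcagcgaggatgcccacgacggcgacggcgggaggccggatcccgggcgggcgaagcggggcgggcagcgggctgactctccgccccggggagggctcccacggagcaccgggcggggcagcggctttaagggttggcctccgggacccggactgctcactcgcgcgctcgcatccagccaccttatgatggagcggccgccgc

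All 8 members matched RefSeq by symbol, with 9 promoter windows in all because Igfbp2 has 2. The Igfbp5 window held the only match, GCCAGGGGC, which begins 64 bases before the start. The same motif occurs in 5450 of 32851 mouse promoters of this length, or 16.6%. It was searched because an AP-2 gene was among those most like Igfbp5 in pattern (below), so the choice followed the values, and a match describes letters and not binding. The 3 promoters also differ in CpG content. That of Igfbp7 holds 33 CpG pairs, more than 91.4% of mouse promoters, whereas those of Igfbp5 and Igfbp6 hold 10 and 8, near the median of 7. The methylation of these promoters was not analysed here. Igfbp2 and Igfbp5 are neighbours on chromosome 1, and Igfbp3 lies beside Igfbp1 on chromosome 11.

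Expression is given as the authors' log2 value, averaged over the probe sets of a gene, so that a difference of 1 is a doubling. The cell labels were checked first. All 7 luminal markers were lower in D-TF-iPSCs than in both other groups, with a mean level of 10.92 to 11.46 in the ME arrays, 10.93 to 10.97 in D-ME-iPSCs and 8.25 to 8.60 in D-TF-iPSCs. Krt18, Epcam and the basal keratin gene Krt14 were higher by 2.90, 1.80 and 2.09 on the log2 scale in ME cells and by 2.95, 1.71 and 2.76 in D-ME-iPSCs. Of 11 fibroblast markers, 10 were lower in ME cells and 8 in D-ME-iPSCs, each against D-TF-iPSCs. Their mean level was 9.01 to 9.51 in the ME arrays, 9.48 to 9.53 in D-ME-iPSCs and 10.79 to 10.87 in D-TF-iPSCs, and Col1a1 and Pdgfra differed by -2.11 and -1.39 in ME cells and by -1.71 and -1.63 in D-ME-iPSCs. Of 10 macrophage markers, 5 and 6 were likewise lower in ME cells and in D-ME-iPSCs, and the mean level of the 10 spanned 6.71 to 7.43, 6.58 to 6.72 and 7.76 to 7.98. The rest were not called. Among them Cd163 ran the other way in both groups (0.36 and 0.13), as did Cd68 in ME cells (0.08) and Csf1r in D-ME-iPSCs (0.06). The part of these other cell types in the results below was not tested, and in bulk RNA fewer cells of a type cannot be told apart from less RNA per cell. One array went against its group. ME replicate 1 correlated with the D-ME-iPSC arrays at 0.991 to 0.993 over all genes and with the other ME arrays at only 0.92 to 0.943. Its correlation with the D-TF-iPSC arrays, 0.952 to 0.956, was also above that with its own group. ME replicates 2 and 3 correlated with each other at 0.973. Its value lay nearer the D-ME-iPSC mean than the mean of the other 2 ME arrays in 8 of 8 members, and in 81.5% of all genes. Values for ME cells are therefore also given without it.

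The members called against D-TF-iPSCs with all 9 arrays were all genes of binding proteins, as most of the 8 members are. The ligand and receptor genes were not called. Igfbp5 was lower in D-TF-iPSCs, about 2-fold against either group, and Igfbp7 was higher. Igfbp6 was higher in D-TF-iPSCs than in D-ME-iPSCs, by 3.61-fold. A gene was called where limma gave it a p under 0.05 after Benjamini-Hochberg adjustment across the 20422 genes. In ME cells against D-TF-iPSCs 2 of 8 members were called, 1 higher and 1 lower, where 16.3% of all genes were called, 7.5% higher and 8.78% lower. In D-ME-iPSCs against D-TF-iPSCs 3 of 8 were called, 1 higher and 2 lower, where 13.3% of all genes were, 6.83% higher and 6.45% lower. Both comparisons use the same D-TF-iPSC arrays and are not independent. The median log2 difference over the 8 members was -0.53 and -0.39 in these comparisons, against 0.01 and -0.01 over all genes.

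**Figure D1:**
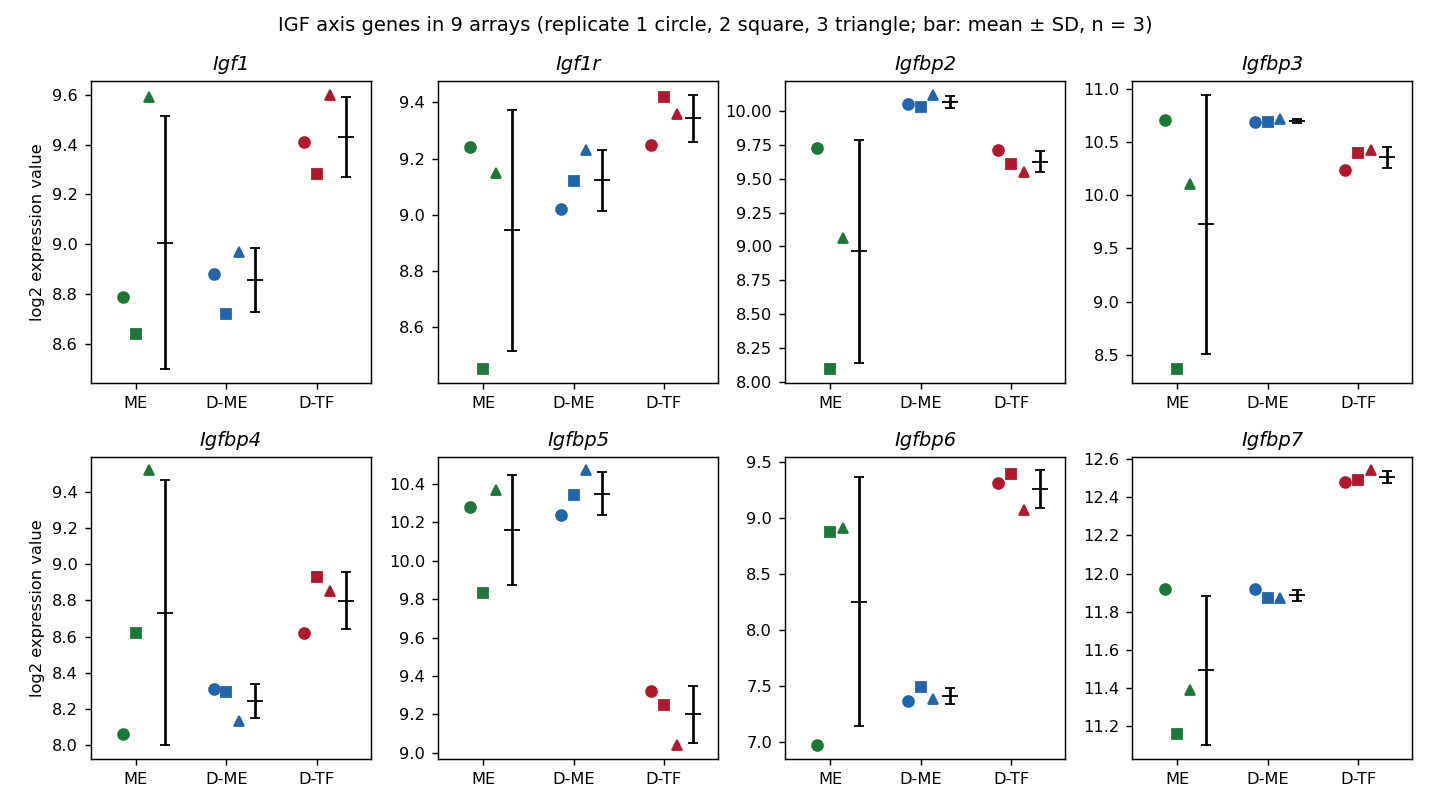
Log2 expression value (vertical axis, a separate scale for each gene) of the 8 IGF axis genes in ME cells (green), D-ME-iPSCs (D-ME, blue) and D-TF-iPSCs (D-TF, red), 1 point per array, with the mean and SD of 3 arrays beside them. Igfbp5 is lowest in all D-TF-iPSC arrays, Igfbp7 is highest in them, and the ME arrays spread most in 8 of 8 genes.

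Igfbp5, the binding protein associated with mammary involution, separated the D-TF-iPSC arrays from all others. In the order of replicates 1 to 3, its log2 value was 10.28, 9.83 and 10.37 in ME cells, 10.24, 10.34 and 10.47 in D-ME-iPSCs, and 9.32, 9.25 and 9.04 in D-TF-iPSCs. The lowest ME or D-ME-iPSC array stood above the highest D-TF-iPSC array. The difference was 0.96 on the log2 scale for ME cells (SE 0.15, 1.94-fold, adjusted p = 0.0031, limma) and 1.15 for D-ME-iPSCs (SE 0.15, 2.22-fold, adjusted p = 0.0014, limma). ME cells and D-ME-iPSCs overlapped in this gene, with a difference of -0.19 and a 95% interval from -0.54 to 0.16. Without ME replicate 1 the first difference was 0.90 (adjusted p = 0.0015, limma). Igfbp5 was measured by 10 probe sets, and all 10 were on average higher in both epithelial-derived groups. Taken alone, 4 of them were called in ME cells and 7 in D-ME-iPSCs, where 7.38% and 5.32% of all probe sets were. Their differences ran from 0.25 to 1.61 in ME cells and from 0.51 to 1.65 in D-ME-iPSCs.

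Igfbp6, which encodes the binding protein with a preference for IGF2, had its highest values in D-TF-iPSCs and its lowest in D-ME-iPSCs and ME replicate 1. It stood at 6.97, 8.87 and 8.91 in ME cells, at 7.36, 7.49 and 7.38 in D-ME-iPSCs, and at 9.31, 9.39 and 9.07 in D-TF-iPSCs. All ME and D-ME-iPSC arrays were below all D-TF-iPSC arrays, but ME replicates 2 and 3 came within a fraction of a log2 unit of them. D-ME-iPSCs were lower by 1.85 (log2 difference -1.85, SE 0.44, adjusted p = 0.022, limma). The difference of ME cells was -1.01 (SE 0.44, adjusted p = 0.16, limma) and was not called. Without ME replicate 1 it shrank to -0.37, yet passed the test (SE 0.11, adjusted p = 0.024, limma), ME replicates 2 and 3 being nearly equal. The D-ME-iPSC call was lost when any 1 of the 6 iPSC-derived arrays was left out, at adjusted p from 0.065 to 0.085 (limma). It was kept without ME replicate 1, at -1.85 (SE 0.10, adjusted p = 1.1e-06, limma).

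The probe sets of Igfbp6 did not move equally. Of 5, 4 were called lower in D-ME-iPSCs, where 5.32% of all probe sets were called in either direction. The differences ran from -0.09 to -3.49. The last in order of ID changed most, with 7.09, 7.04 and 6.91 in D-ME-iPSCs and 10.42, 10.55 and 10.54 in D-TF-iPSCs. In ME cells it gave 6.37, 9.93 and 10.25, so that ME replicate 1 was alone among the ME arrays in lying at the D-ME-iPSC level. The first probe set, by contrast, overlapped between all groups, with a difference of -0.09 for D-ME-iPSCs and -0.26 for ME cells. It was dim, with means of 6.97 in ME cells, 7.14 in D-ME-iPSCs and 7.23 in D-TF-iPSCs, below every array median. Which exon each probe set covers was not analysed here.

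Igfbp7, a secreted protein of stroma and vessels as well as epithelium with low affinity for IGFs, was higher in D-TF-iPSCs than in either other group. Its values were 11.93, 11.16 and 11.39 in ME cells, 11.92, 11.87 and 11.87 in D-ME-iPSCs, and 12.48, 12.49 and 12.54 in D-TF-iPSCs. The groups did not overlap against D-TF-iPSCs, and ME replicate 1 again sat with the D-ME-iPSC arrays. The difference was -1.01 for ME cells (SE 0.17, 2.02-fold lower, adjusted p = 0.004, limma) and -0.62 for D-ME-iPSCs (SE 0.17, 1.53-fold lower, adjusted p = 0.044, limma). Without ME replicate 1 the former was -1.23 (adjusted p = 7.8e-06, limma). All 5 probe sets were on average lower in both groups. Of them, 2 were called in ME cells and 0 in D-ME-iPSCs, where 7.38% and 5.32% of all probe sets were. With all 9 arrays the call in D-ME-iPSCs lay close to the threshold. It was lost when any 1 of the 6 iPSC-derived arrays was left out (adjusted p 0.11 to 0.14, limma) and without ME replicate 3 (0.053). Without ME replicate 1 the difference of D-ME-iPSCs was -0.62 and stayed called (SE 0.08, adjusted p = 0.00044, limma). The fit used 1 spread for all groups, and the SD was 0.39 in ME cells but 0.03 in each iPSC-derived group.

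**Figure D2:**
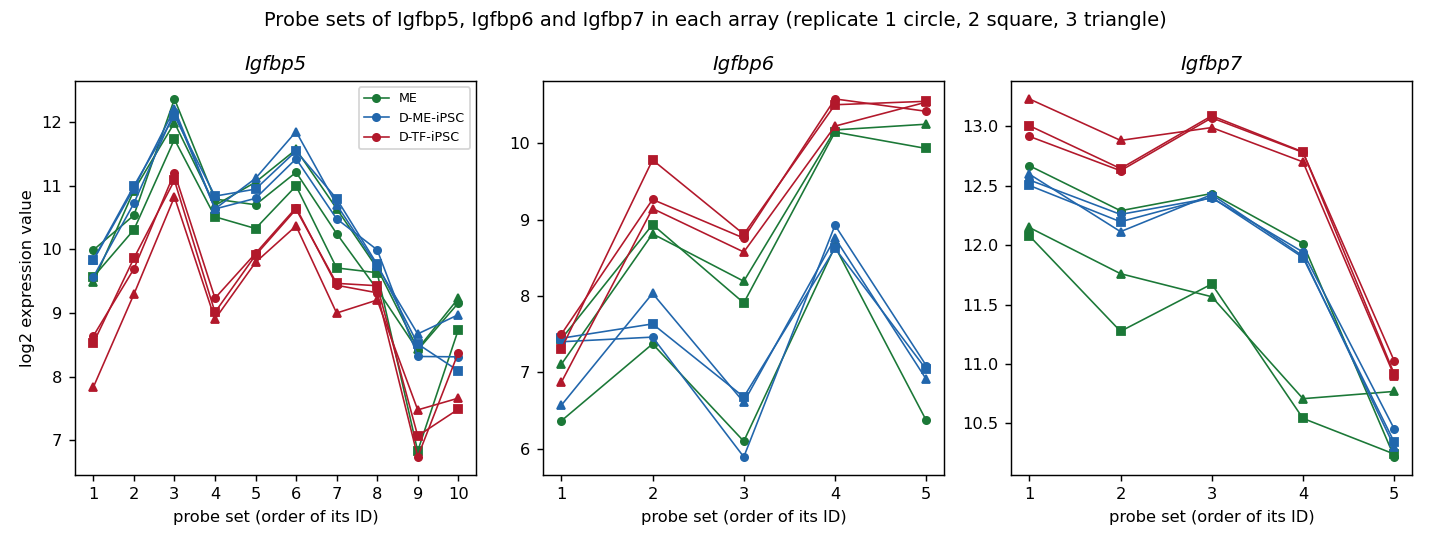
Log2 expression value (vertical axis) of each probe set (horizontal axis, in order of ID) of Igfbp5, Igfbp6 and Igfbp7, with 1 line per array in ME cells (green), D-ME-iPSCs (blue) and D-TF-iPSCs (red). In Igfbp5 the red lines lie lowest at most of the 10 probe sets, in Igfbp7 highest at all 5, and in Igfbp6 the circles of ME replicate 1 run with the blue lines.

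With all 9 arrays the ligand and receptor genes differed from D-TF-iPSCs by less than each called binding-protein gene. In D-ME-iPSCs, however, Igf1 came close to Igfbp7 (-0.57 against -0.62) and exceeded the uncalled Igfbp2, Igfbp3 and Igfbp4 in size. Igf1 stood at 8.79, 8.64 and 9.59 in ME cells, at 8.88, 8.72 and 8.97 in D-ME-iPSCs, and at 9.41, 9.28 and 9.60 in D-TF-iPSCs. The D-ME-iPSC arrays were all below the D-TF-iPSC arrays, whereas ME replicate 3 reached them. Neither difference was called (-0.43, SE 0.22, adjusted p = 0.25 for ME cells and -0.57, SE 0.22, adjusted p = 0.15 for D-ME-iPSCs, limma), nor was that of ME cells without ME replicate 1 (-0.32, adjusted p = 0.31). Both were called when ME replicate 3, the high ME array, was left out (-0.72, adjusted p = 0.011 and -0.57, adjusted p = 0.015, limma), and that of ME cells was -0.24 without ME replicate 2 (adjusted p = 0.53). That of D-ME-iPSCs was also called when only the iPSC-derived arrays were fitted (-0.57, adjusted p = 0.0017, limma). Of the 12 Igf1 probe sets, 11 were on average lower than in D-TF-iPSCs for ME cells and 12 for D-ME-iPSCs, and 0 were called in either. Igf1r, the receptor kinase, was measured by 23 probe sets and stood at 9.24, 8.45 and 9.15 in ME cells, at 9.02, 9.12 and 9.23 in D-ME-iPSCs, and at 9.25, 9.42 and 9.36 in D-TF-iPSCs. The lowest D-TF-iPSC array was above every other array, though ME replicate 1 and D-ME-iPSC replicate 3 came within a few hundredths of it. The differences, -0.40 and -0.22, were not called (adjusted p = 0.2 and 0.58, limma), with 95% intervals from -0.83 to 0.03 and from -0.65 to 0.21. That of ME cells was -0.54 without ME replicate 1 and was called (adjusted p = 0.034, limma), but was -0.15 without ME replicate 2 (adjusted p = 0.37). The Igf1r difference of D-ME-iPSCs stayed uncalled when only the iPSC-derived arrays were fitted (-0.22, adjusted p = 0.055, limma).

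Igfbp2 and Igfbp3, which encode binding proteins with affinity for both IGFs, were tight in the iPSC-derived groups and wide in ME cells. Igfbp2 stood at 9.73, 8.09 and 9.06 in ME cells, at 10.05, 10.03 and 10.12 in D-ME-iPSCs, and at 9.71, 9.61 and 9.55 in D-TF-iPSCs. Igfbp3, the main carrier of IGFs in serum, stood at 10.71, 8.36 and 10.11, at 10.69, 10.69 and 10.72, and at 10.24, 10.40 and 10.43. In both genes D-ME-iPSCs had the highest mean, their arrays did not overlap those of D-TF-iPSCs, and ME replicate 2 was the lowest of all 9 arrays. D-ME-iPSCs exceeded D-TF-iPSCs by 0.45 for Igfbp2 (95% interval -0.29 to 1.19) and by 0.34 for Igfbp3 (-0.73 to 1.42), neither called (adjusted p = 0.49 and 0.78, limma). That fit used 1 spread for all groups, so these intervals include the ME spread. The SD was 0.83 and 1.22 in ME cells, 0.04 and 0.02 in D-ME-iPSCs, and 0.08 and 0.10 in D-TF-iPSCs. When only the iPSC-derived arrays were fitted, the same differences were called (adjusted p = 0.00077 and 0.0043, limma). In the fit with all 9 arrays, ME cells differed from D-TF-iPSCs by -0.66 and -0.63, not called (adjusted p = 0.22 and 0.44, limma). Both were called in ME cells once ME replicate 1 was left out, at -1.05 (adjusted p = 0.0043) and -1.12 (adjusted p = 0.042, limma). Both shrank when ME replicate 2 was left out instead, to -0.22 for Igfbp2 (adjusted p = 0.46, limma) and to 0.05, with the sign turned, for Igfbp3 (adjusted p = 0.87).

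Igfbp4, an inhibitory binding protein that the protease PAPP-A cuts, stood at 8.06, 8.62 and 9.52 in ME cells, at 8.31, 8.29 and 8.13 in D-ME-iPSCs, and at 8.62, 8.93 and 8.85 in D-TF-iPSCs. The ME arrays spanned the range of both other groups. D-ME-iPSCs were below D-TF-iPSCs on every array, with a difference of -0.56 (SE 0.30, adjusted p = 0.31, limma). This difference was called when only the iPSC-derived arrays were fitted (adjusted p = 0.0014, limma). The difference of ME cells was -0.07 (95% interval -0.75 to 0.61) and was 0.27 without ME replicate 1 and -0.46 without ME replicate 3, with no call in any case.

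**Figure D3:**
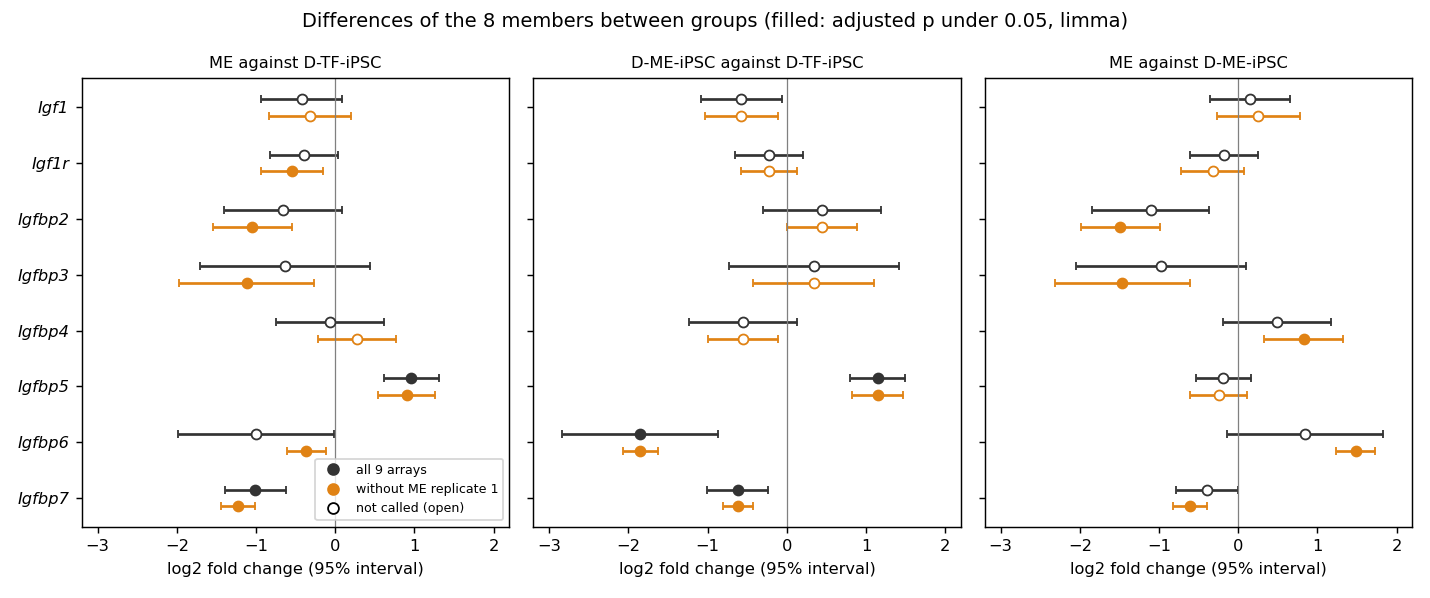
Log2 fold change (horizontal axis) with its 95% interval for the 8 genes in the 3 comparisons, first group minus second, with all 9 arrays (dark) and without ME replicate 1 (orange), filled where the adjusted p was under 0.05. Igfbp5 lies near 1 in both comparisons against D-TF-iPSCs. In ME against D-ME-iPSCs no gene is filled until ME replicate 1, the ME array most like D-ME-iPSCs, is left out.

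In D-ME-iPSCs against D-TF-iPSCs the arrays of the groups did not overlap in any of the 8 members, a state also found in 48.4% of all genes. In ME cells against D-TF-iPSCs they did not overlap in 4 members, Igf1r, Igfbp5, Igfbp6 and Igfbp7, and in 29.4% of all genes. The spread differed between the groups. The SD over 3 arrays was 0.29 to 1.22 among the members in ME cells, but 0.02 to 0.13 in D-ME-iPSCs and 0.03 to 0.17 in D-TF-iPSCs, and the fit used 1 spread for all groups. When only the 6 iPSC-derived arrays were fitted, 7 of 8 members were called between D-ME-iPSCs and D-TF-iPSCs, Igf1r being the exception, with 38.3% of all genes.

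ME cells and D-ME-iPSCs, the comparison of differentiated cells with the cells they were to become, gave no called member, and 0% of all genes was called (limma). At an unadjusted p under 0.05 there were 3857 genes, or 18.9%, with limma and 1074, or 5.26%, with the methods' t-test. Igfbp2 and Igfbp7 were among those of limma, at -1.11 and -0.39 (adjusted p = 0.25 and 0.26, limma). Igfbp2 was the only member without overlap, a state shared with 14.1% of genes. Without ME replicate 1, 5 members were called, 3 lower and 2 higher, where 38.7% of all genes were, 23.6% lower and 15.1% higher. That array was left out because it resembled the D-ME-iPSC arrays, so this refit is tilted towards a difference between these groups. It also rests on only 2 ME arrays. Igfbp2, Igfbp3 and Igfbp7 were then lower in ME cells than in D-ME-iPSCs, by -1.49, -1.46 and -0.61 on the log2 scale (adjusted p = 0.00064, 0.013 and 0.00076, limma). Igfbp4 and Igfbp6 were higher, by 0.83 and 1.49 (adjusted p = 0.015 and 1.1e-05, limma). Igfbp5, Igf1 and Igf1r were not called with or without that array.

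The members did not follow 1 pattern over the 9 arrays. Igfbp2 and Igfbp3 had a Pearson r of 0.952, with the low ME replicate 2 shared by both, while Igfbp5 and Igfbp6 ran in opposite directions (r = -0.779). Over the same arrays, and among 2661 genes with an SD of at least 0.5, those most like Igfbp5 were BC006965 (r = 0.993), Tcfap2b (r = 0.991), which encodes an AP-2 transcription factor, and Myb (r = 0.991), which encodes another transcription factor. Most like Igfbp6 were Podn (r = 0.989), which encodes an extracellular matrix proteoglycan, Gria4 (r = 0.989), a glutamate receptor subunit gene, and Plac8 (r = 0.988). Igfbp2 was most like Nup107, Tubg1 and Asna1 (r = 0.984, 0.982 and 0.982), a nuclear pore, a γ-tubulin and a membrane-protein insertion gene. Igfbp3 was most like 6720463M24Rik, Nuf2, a kinetochore gene, and Trim59 (r = 0.986, 0.979 and 0.977). Arrays of a group share their source, and these values over 3 groups are descriptions.

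Of 75 other genes of the pathway, 71 were measured. In ME cells against D-TF-iPSCs 22 were called, 9 higher and 13 lower (31% of the 71, against 16.3% of all genes), and in D-ME-iPSCs against D-TF-iPSCs 12 were, 3 higher and 9 lower (16.9% against 13.3%). These counts depend on single arrays: without ME replicate 1 they were 41 and 31, with 39.1% and 28.3% of all genes called, and the second was 22 without ME replicate 2 (18.5% of all genes). The first was 12 or 13 without any 1 D-TF-iPSC array, with 8.93% to 9.62% of all genes called, and the second was 5 to 7 without any 1 iPSC-derived array, with 7.58% to 8.1%. Between ME cells and D-ME-iPSCs 0 were called, where 0% of all genes was.

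Among 18 other ligands, receptors, carriers and binding-protein proteases, 4 were called in ME cells and 2 in D-ME-iPSCs, where 16.3% and 13.3% of all genes were. Igf2r, the receptor that clears IGF2, was lower in ME cells (9.48 ± 0.60, SD, n = 3) than in D-TF-iPSCs (10.80 ± 0.08), by -1.32 (adjusted p = 0.0064, limma), and differed by -0.73 in D-ME-iPSCs (adjusted p = 0.088). Adamts1, a matrix protease gene, was higher in both (0.70 and 0.69, adjusted p = 0.02 and 0.025, limma). Prss23, a secreted serine protease gene, was lower in both (-0.45 and -0.53, adjusted p = 0.022 and 0.012). Htra1, whose product cuts IGF-binding proteins, was lower in ME cells (-0.94, adjusted p = 0.03, limma), and its value of -0.39 in D-ME-iPSCs was not called. Igf2, Insr and Igfbp1 were called in neither. Igf2 had means of 6.88 in ME cells, 6.83 in D-ME-iPSCs and 6.96 in D-TF-iPSCs, and Igfbp1 of 6.05, 5.60 and 5.90. Both genes lay below the array medians of 7.45 to 7.61. Insr, the insulin receptor gene, differed by 0.04 and -0.05 from D-TF-iPSCs.

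Of 6 measured genes of growth hormone and prolactin input to Igf1, the growth hormone receptor gene Ghr differed most. It stood at 7.94, 8.16 and 8.08 in ME cells, at 7.83, 7.89 and 7.84 in D-ME-iPSCs, and at 9.11, 9.36 and 9.63 in D-TF-iPSCs. The arrays of the first 2 groups were all below those of D-TF-iPSCs, and the differences were -1.31 and -1.51 (adjusted p = 0.00029 and 0.00015, limma). Stat5b, a transcription factor gene downstream of this receptor, and Cish, an inhibitor gene induced by STAT5, were called higher in ME cells (0.70 and 0.57, adjusted p = 0.031 and 0.034, limma), with 0.16 and 0.25, not called, in D-ME-iPSCs. Neither was called between ME cells and D-ME-iPSCs, where 0% of all genes was. There Stat5b was higher in ME cells by 0.54 and Cish by 0.32. The arrays of these groups did not overlap in Stat5b, a state found in 14.1% of all genes, and overlapped in Cish. Cish lay below every array median, with group means of 6.12 to 6.69.

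Among 37 measured genes of IGF1R signalling, 6 were higher and 3 lower in ME cells, and 2 higher and 3 lower in D-ME-iPSCs. Over all genes, 7.5% were called higher and 8.78% lower in ME cells, and 6.83% higher and 6.45% lower in D-ME-iPSCs. Pik3cb, a catalytic subunit gene of PI3K, stood at 10.96, 10.08 and 9.86 in ME cells, 10.83, 10.92 and 10.86 in D-ME-iPSCs and 8.98, 8.90 and 8.69 in D-TF-iPSCs, with differences of 1.44 and 2.01 (adjusted p = 0.0041 and 8e-04, limma). Grb10, an imprinted gene whose adaptor protein inhibits the insulin and IGF1 receptors, ran the other way. It stood at 8.39, 7.51 and 8.00, at 8.26, 8.21 and 8.31, and at 9.72, 9.75 and 9.65, with differences of -1.74 and -1.44 (adjusted p = 4e-04 and 0.0012, limma). In both genes the D-TF-iPSC arrays lay apart from all others. Pik3r1, the regulatory subunit gene, and Foxo1, a transcription factor gene held in check by AKT, were called in ME cells (1.26 and 1.17, adjusted p = 0.0057 and 0.0089, limma), with 0.56 and 0.63, not called, in D-ME-iPSCs. Irs2, a receptor substrate gene measured by 1 probe set, was also higher in ME cells (1.33, adjusted p = 0.017, limma) and gave 0.45, not called, in D-ME-iPSCs. Irs1 was not called, at -0.51 and 0.74, with ME values of 9.20, 7.18 and 7.86.

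**Figure D4:**
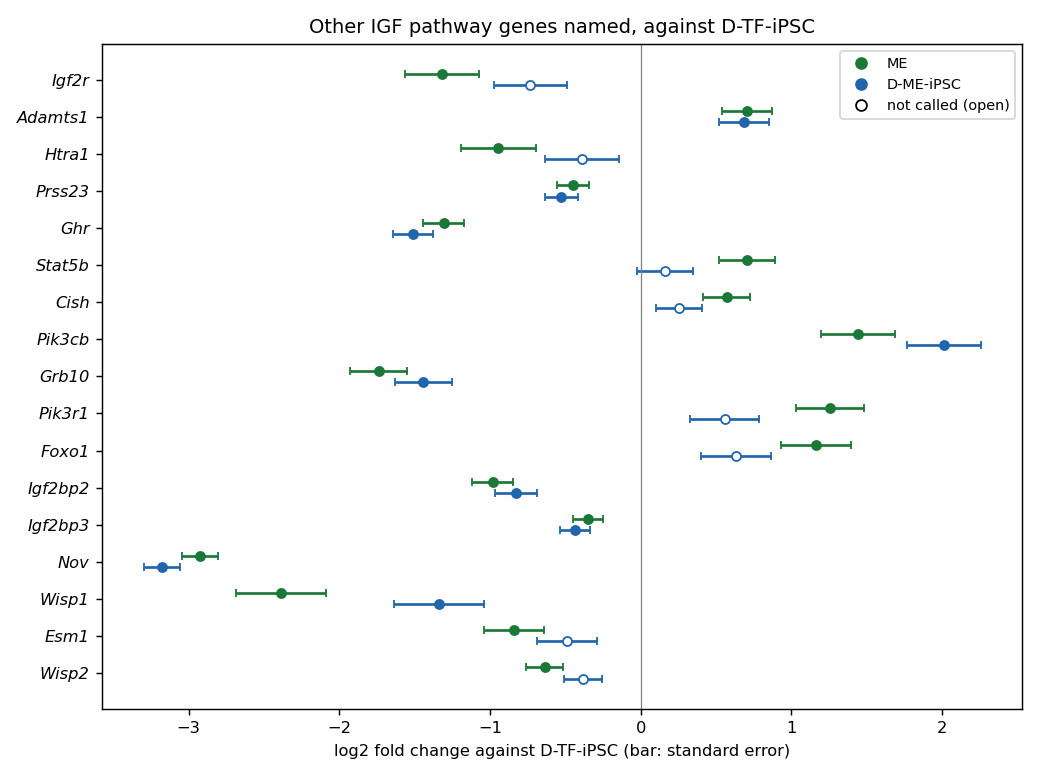
Log2 fold change against D-TF-iPSCs (horizontal axis, bar: standard error) of the other IGF pathway genes chosen by the naming rule, in ME cells (green) and D-ME-iPSCs (blue), filled where called. Nov lies farthest left at -2.93 and -3.18, and Pik3cb farthest right at 1.44 and 2.01.

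In the remaining lists the genes called were all higher in D-TF-iPSCs. Over all genes, 8.78% were called lower in ME cells and 6.45% in D-ME-iPSCs. Of 3 genes for IGF2 mRNA-binding proteins, which carry and stabilise transcripts, Igf2bp2 (-0.98 and -0.83, adjusted p = 0.0014 and 0.0039, limma) and Igf2bp3 (-0.35 and -0.44, adjusted p = 0.046 and 0.021) were lower in ME cells and in D-ME-iPSCs. Igf2bp3 lay below every array median, with group means of 6.32 to 6.76. Of 7 genes of the CCN family and its relatives, matricellular proteins with a domain like that of the binding proteins, 4 were lower in ME cells and 2 in D-ME-iPSCs, and 0 were called higher. Cyr61 and Ctgf, also of this family and named after their values were seen, were not called, at 0.06 and -0.31 in ME cells and 0.29 and 0.01 in D-ME-iPSCs. Nov (CCN3) had the largest difference of the pathway genes named here. It stood at 6.46, 6.84 and 6.76 in ME cells, at 6.43, 6.37 and 6.52 in D-ME-iPSCs, and at 9.58, 9.58 and 9.68 in D-TF-iPSCs, with differences of -2.93 and -3.18 (adjusted p = 4.4e-06 and 2.7e-06, limma). Wisp1 (CCN4) followed with -2.39 and -1.34 (adjusted p = 0.00081 and 0.017, limma). Esm1, an endothelial proteoglycan gene, and Wisp2 were called lower in ME cells (-0.84 and -0.64, adjusted p = 0.02 and 0.0082, limma), with -0.49 and -0.38, not called, in D-ME-iPSCs. Without ME replicate 1 the genes of the plot against D-TF-iPSCs kept their direction in ME cells, at adjusted p from 5.1e-08 to 0.033 (limma). The fibroblast markers given above moved in the same direction between the same groups, and their part in these differences was not tested.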

How the data were processed

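Biotin-labelled RNA of the 3 groups was hybridised to Affymetrix mouse Gene 1.0 ST arrays. The authors deposited log2 values of exon-level probe sets. The submitters' processing notes name RMA and Partek without versions. Of 241576 probe sets, 212138 carried exactly 1 gene symbol; the 4672 with several and 24766 with none were not used. The probe sets of a gene (median 8) were averaged on the log2 scale. Array medians lay between 7.45 and 7.61, and single values between 2.56 and 14.45. A mean per group was fitted to all 9 arrays with limma 3.58.1 in R 4.3.3 (tables read with the data.table package, version 1.17.8). The procedure was first tested on simulated data. That simulation gave all arrays of a gene the same spread, so it did not cover the wider spread of the ME arrays. Precision is limited by 3 arrays per group; arrays give no count depth. Each SD is over 3 arrays.

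The members and the lists of other genes were chosen with earlier results of these data known. Named are all members; per other list, called genes, at most the 4 largest by mean absolute difference; Igf2, Insr, Igf2r, Igfbp1, Irs1 and Irs2 always; and, for members with an SD of at least 0.5, the 3 genes of highest Pearson r. Listed pathway genes beyond the 71 measured were not analysed here. The marker lists for adipocyte and pluripotent cells had 0 of 6 genes called in any comparison, 2 of 6 endothelial markers were lower in ME cells than in D-TF-iPSCs and 0 in D-ME-iPSCs, and 5 of 7 basal markers were higher in each. Among defining markers, Ptprc and Adipoq were not called against D-TF-iPSCs, and Pecam1 was lower in ME cells. Alternatives were quantile normalization, median centring, a filter on dim genes, median or brightest probe set, a robust trend, fewer arrays, the methods' t-test, a replicate block, array weights and leaving out each array.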

Additional observations from a re-analysis of the deposited data

How the results depend on the processing

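Of 480 refits of single members (8 genes, 3 comparisons, 20 alternatives), 418 kept the direction and the side of the threshold, 36 gained a call, 19 lost one and 7 reversed. Igfbp5 was called in 20 of 20 alternatives in D-ME-iPSCs against D-TF-iPSCs (1.06 to 1.37) and in 19 of 20 in ME cells, lost with the adjusted methods' t-test (adjusted p = 0.098), as Igfbp7 was (adjusted p = 0.12). In D-ME-iPSCs, Igfbp6 was called in 13 of 20 and Igfbp7 in 10. The reversals were all of differences not called in the report: Igf1 (0.17) and Igfbp4 (0.67, called at adjusted p = 0.00018, limma) in ME against D-TF-iPSCs with array weights, Igfbp4 there without ME replicate 1 (0.27), Igfbp3 there without ME replicate 2 (0.0533), and in ME against D-ME-iPSCs Igf1 with the median of the probe sets (-0.0732) or without ME replicate 3 (-0.14) and Igf1r without ME replicate 2 (0.0683). With 1 array left out, these differences ranged from -1.12 to 0.0533 for Igfbp3 and from -0.46 to 0.27 for Igfbp4 in ME against D-TF-iPSCs, and from -0.14 to 0.33 for Igf1 and from -0.32 to 0.0683 for Igf1r in ME against D-ME-iPSCs. Of the members, 2 were called in ME against D-TF-iPSCs, but 0 with the adjusted methods' t-test (3.05% of all genes, against 16.3%), 6 with array weights and 2 to 6 with 1 array left out (8.93% to 39.1%). In D-ME-iPSCs against D-TF-iPSCs 3 were called, but 1 with the median of the probe sets (9.79% of all genes, against 13.3%), 7 with only the 6 arrays compared (38.3%), 8 and 7 with the methods' t-test unadjusted and adjusted (40.8% and 30.3%), 6 with array weights and 1 to 3 with 1 array left out (7.58% to 28.3%). In ME against D-ME-iPSCs, 0 became 6 with array weights and 0 to 5 with 1 array left out (0% to 38.7%). Array weights gave ME replicates 1, 2 and 3 weights of 0.0658, 0.142 and 8.98 and called 60.1%, 40.4% and 59% of all genes in the 3 comparisons. With 1 array left out, the other pathway genes called ranged from 12 to 41 and from 5 to 31, and the member probe sets (added after seeing the data) from 1 to 14, 1 to 14 and 0 to 14. The shares of all probe sets called in these probe-set refits are not given here. The cause of these shifts was not tested.

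No label says that the replicate numbers pair the samples. The deviations of same-numbered arrays from their group means correlated at -0.179 to 0.157. With 3 arrays per group, this cannot show whether same-numbered arrays were handled together. With the replicate number as a block, 2 members were called in ME and 2 in D-ME-iPSCs against D-TF-iPSCs and 0 between ME and D-ME-iPSCs (Igfbp7 was lost in D-ME-iPSCs, adjusted p = 0.057, limma), and 20 and 10 other pathway genes in the first 2 comparisons, where 13.7% and 11% of all genes were called. Member probe sets called went from 6 to 4, from 11 to 6, and stayed at 0. Of all probe sets 7.38%, 5.32% and 0% were called without the block, and the shares with it are not given here.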
